A study of Mus musculus with 18 samples.

Results

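Acute-phase secreted proteins were followed through 8 genes of the 33440 to which the deposited transcripts were summed: Serpina3n, Saa3, Lcn2, Orm1, Hp, Itih4, Itih5 and Cp. The genes were picked by name from the acute-phase response with earlier results of both comparisons in view, so their values in these comparisons are given as a description. The series holds 18 RNA-seq libraries from C57BL/6 mice and asked which genes lie downstream of IRF3, the transcription factor of antiviral and toll-like receptor signalling, in adipocytes. In the first experiment, adipocytes were differentiated from the inguinal stromal vascular fraction (SVF) of mice of 4 to 6 weeks. These mice carry a constitutively active Irf3 allele that stays silent until Cre acts. On day 6 the cells received AAV-GFP-Cre (FI3OE, 3 libraries) or AAV-GFP (WT SVF, 3 libraries), and they were harvested on day 8 in medium with insulin and rosiglitazone after an induction with dexamethasone. The WT SVF cells carry the unrecombined allele, and the effects of Cre and of the allele cannot be told apart. In the second experiment, translating ribosome affinity purification (TRAP) drew RNA from tagged ribosomes of adipocytes in epididymal white adipose tissue (eWAT) of Ad-NuTRAP mice (WT TRAP, 6 libraries) and FI3KO-Ad-NuTRAP mice (FI3KO, 6 libraries), all fed a high-fat diet for 8 weeks at thermoneutrality (30 °C). The diet began at 8 weeks of age by the study's general methods. Adipoq-Cre drives both the Irf3 deletion and the ribosome tag, so the knockout covers cells that express Adipoq.

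The acute-phase response is the change in plasma proteins that follows infection or injury. The liver makes most of these proteins when interleukin-6, interleukin-1 and related cytokines act through STAT3, C/EBP factors and NF-kB, and glucocorticoids strengthen the response. White adipocytes secrete several of the same proteins, among them haptoglobin, orosomucoid, lipocalin 2 and the Saa3 form of serum amyloid A, and their output rises in obesity.

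CPM are estimated reads per gene scaled to the library total, and a gene at 1 CPM rested on 21.5 reads in the shallowest library and 40.5 in the deepest. Adipoq, Plin1 and the other adipocyte markers summed to between 7238 and 7527 CPM in SVF cultures and between 24737 and 31791 CPM in TRAP libraries. Irf3 was read in every library as the gene the labels name. In FI3OE it stood at 90.8 to 100.3 CPM, above the 56.8 to 58.6 CPM of WT SVF. In TRAP the gene-level values did not settle the label: Irf3 overlapped in CPM between FI3KO (12.4 to 18.8) and WT TRAP (17.2 to 23.2), and in TPM it was higher in every FI3KO library (55.1 to 93.5) than in every WT TRAP library (37.8 to 47.3). Its reads fell on different annotated transcripts. A coding transcript of 1429 bases, singled out after its values were seen, had 0 reads in all 6 FI3KO libraries and 164 to 388 in WT TRAP, while WT TRAP had no more than 7.65 reads of a coding transcript of 369 bases that had 89.9 to 175 in FI3KO. FI3KO below therefore means the libraries labelled as the knockout, and directions rest on that label. WT TRAP replicates 1 and 2 were the closest pair of the series (chi-square over degrees of freedom of 2.60, with 14.2% of genes past the 5% point), differed by more than counting noise, and were kept as 2 libraries. They stood apart from WT TRAP replicates 3 to 6, and the knockout effect on the 8 genes is therefore also given for each replicate set. No label ties these sets to a batch, and they were known from earlier results of these data.

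All 8 genes are protein-coding in the GENCODE annotation of GRCm38. Serpina3n (ENSMUSG00000021091, chr12:104406729-104414329, plus strand) encodes a secreted serine protease inhibitor. Saa3 (ENSMUSG00000040026, chr7:46711998-46715700, minus strand) encodes the serum amyloid A protein made mainly outside the liver. Lcn2 (ENSMUSG00000026822, chr2:32384633-32388252, minus strand) encodes lipocalin 2, which binds bacterial siderophores and so withholds iron. Orm1 (ENSMUSG00000039196, chr4:63344560-63348163, plus strand) encodes orosomucoid 1, an abundant glycoprotein of plasma. Hp (ENSMUSG00000031722, chr8:109575128-109579172, minus strand) encodes haptoglobin, the plasma protein that captures free haemoglobin. Itih4 (ENSMUSG00000021922, chr14:30886476-30902353, plus strand) and Itih5 (ENSMUSG00000025780, chr2:10153571-10256529, plus strand) encode heavy chains of the inter-alpha-trypsin inhibitor family, some of whose members are tied to the hyaluronan matrix. Cp (ENSMUSG00000003617, chr3:19957054-20009145, plus strand) encodes ceruloplasmin, a copper-containing ferroxidase. Of the 8, only Cp overlaps another annotated gene in this annotation: its last 13201 bases lie opposite Hps3, and the library kit keeps no strand. Orm1, the Serpina3 genes and Saa3 have close paralogs, and reads could be split between copies.

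Promoter sequence is shown for 3 genes whose windows hold a searched motif outside annotated exons: Saa3 and Serpina3n, lower in FI3KO, and Itih4, lower in FI3OE. RefSeq start sites on GRCm38.p6 were matched for 6 of the 8 genes, in 7 windows of 250 bases before the start. The letters searched on both strands were GAAANNGAA (IRF type), GGGANNTTC (kB type), TTGCNNAA (C/EBP type), TTCNNNGAA (STAT type) and ACANNNTGT (glucocorticoid receptor type). Among 32851 windows of this length in the table, 7.13% held the IRF letters, 3.23% the kB letters, 9.56% the C/EBP letters, 7.02% the STAT letters and 5.84% the glucocorticoid receptor letters. Each sequence runs 5′ to 3′ on the gene's own strand, with matched letters in capitals, and bases inside annotated exons are left out. The first is Saa3 at chr7:46715701-46715926 (minus strand), the second Serpina3n at chr12:104406458-104406707 (plus strand) and the third Itih4 at chr14:30886226-30886475 (plus strand).
Saa3: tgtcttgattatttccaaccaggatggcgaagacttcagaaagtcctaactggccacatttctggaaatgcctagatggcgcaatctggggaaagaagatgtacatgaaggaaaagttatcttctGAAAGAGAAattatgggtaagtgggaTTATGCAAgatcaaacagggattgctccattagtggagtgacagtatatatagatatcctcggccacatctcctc
Serpina3n: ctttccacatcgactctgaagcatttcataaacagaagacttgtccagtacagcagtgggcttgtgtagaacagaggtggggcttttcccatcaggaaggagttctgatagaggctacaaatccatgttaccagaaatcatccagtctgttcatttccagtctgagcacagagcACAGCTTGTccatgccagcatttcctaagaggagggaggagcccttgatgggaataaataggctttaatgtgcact
Itih4: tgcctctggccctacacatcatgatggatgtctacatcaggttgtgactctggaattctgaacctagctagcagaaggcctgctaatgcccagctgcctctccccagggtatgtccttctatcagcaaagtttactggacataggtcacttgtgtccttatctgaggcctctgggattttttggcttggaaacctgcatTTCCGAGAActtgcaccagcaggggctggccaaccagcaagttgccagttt
In the Saa3 window the capitals mark an IRF-type match that begins 125 bases before the start, GAAAGAGAA, and a C/EBP-type match on the other strand 99 bases before it, TTATGCAA. The Serpina3n window holds a glucocorticoid receptor-type match, ACAGCTTGT, 76 bases before the start, and the Itih4 window a STAT-type match, TTCCGAGAA, 51 bases before it. Lcn2 held a C/EBP-type and a glucocorticoid receptor-type match and the second of the Cp windows a C/EBP-type match, all inside annotated exons, and Itih5 held none of the 5 motifs. Of the 7 windows, 1 held the IRF letters and 0 held the kB letters. A match of letters is a description and was not tested for binding.

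Baseline levels were compared between genes per unit length, in TPM, which divide reads by transcript length before scaling to the library total. Haptoglobin led in both WT groups. In WT SVF-derived adipocytes Hp stood at 3382 ± 285 TPM (SD, n = 3), followed by Serpina3n at 391 ± 30.5, Saa3 at 185 (range 164 to 211), Cp at 183 ± 4.68 and Orm1 at 135 ± 1.49 TPM. Itih5 at 29.9 ± 0.985, Lcn2 at 20.8 ± 6.09 and Itih4 at 17.5 ± 0.576 TPM closed the order. The ranges of Saa3 and Cp overlapped, as did those of Lcn2 and Itih4, and the other neighbours were separate in all 3 libraries. In WT TRAP the order was Hp at 10348 ± 2750.4 TPM (SD, n = 6), Serpina3n at 735 ± 78.6, Itih5 at 538 ± 104, Orm1 at 359.7 ± 25.7, Saa3 at 66.9 ± 39.7, Cp at 12.5 ± 4.47, Lcn2 at 11.8 ± 7.35 and Itih4 at 0.267 ± 0.146 TPM. Here Serpina3n and Itih5 overlapped, as did Saa3 and Cp and also Cp and Lcn2. The order turned between the replicate sets for 2 of these pairs. Itih5 (mean 670.6 TPM) was above Serpina3n (637) in replicates 1 and 2 and below it in replicates 3 to 6 (471 against 784). Cp (17.9 TPM) was above Lcn2 (2.51) in replicates 1 and 2 and below it in replicates 3 to 6 (9.79 against 16.4). Between the sets, replicates 1 and 2 first, Hp stood at 6827 and 12108 TPM and Saa3 at 18.4 and 91.1 TPM, while Orm1 stood at 372 and 354 TPM. Culture, fat depot, diet and purification all differ between the WT groups, so their levels are set side by side without a test: Itih5 lay at 28.8 to 30.6 TPM in WT SVF and at 459.8 to 671 TPM in WT TRAP, and Cp at 179.7 to 188 TPM and 8.02 to 19.2 TPM.

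**Figure D1:**
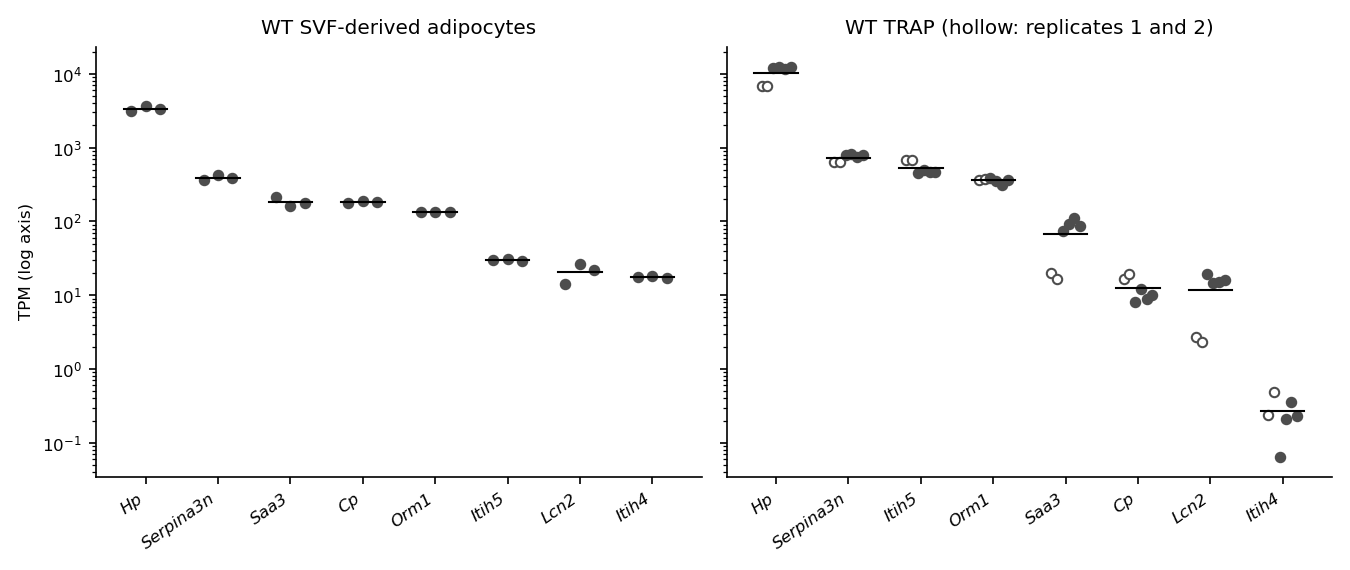
TPM (log axis) of the 8 genes in each WT library, ordered by their mean (line), for 3 WT SVF-derived adipocyte libraries and 6 WT TRAP libraries. Hp leads in both panels, at 3117 to 3683 TPM and at 6809 to 12566 TPM, and Itih4 is last in both.

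The first comparison asked how constitutively active IRF3 changes these genes in cultured adipocytes. Itih4 and Itih5, the heavy chains among the 8, were lower in FI3OE. Orm1 and Saa3 were higher by less than the fold cutoff, and Hp and Serpina3n overlapped between the groups. An edgeR quasi-likelihood fit covered all 16105 genes tested, and a gene was called at an adjusted p of at most 0.05 when its log2 fold change was also 1 or more in either direction. Of the 8 genes, 2 met both cutoffs, both lower, where 3.62% of all genes did, 1.63% lower and 1.99% higher. On the adjusted p alone 3 were higher and 2 lower, against 20.2% and 16.8% of all genes. In 6 of the 8 the CPM of the groups did not overlap, against 49.8% of all genes. Since these genes were listed with this comparison known, nothing is read from the counts.

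Itih4, the heavy chain that the liver raises in the acute phase, stood at 27.7, 27.3 and 26.5 CPM in WT SVF and at 3.59, 3.21 and 3.68 CPM in FI3OE. The groups lay far apart, with a log2 fold change of -2.94 ± 0.08 (SE), or 7.65-fold lower. These levels rest on 589 to 672 reads per WT library and 85 to 136 reads per FI3OE library. Salmon assigned these reads to different Itih4 isoforms from library to library, and only the sum over isoforms is used. Itih5, the heavy chain of adipose tissue, stood at 141, 140.3 and 134 CPM in WT SVF and at 62.9, 69.5 and 68.0 CPM in FI3OE. Its log2 fold change of -1.03 ± 0.05 lies just past the cutoff, and without FI3OE replicate 1 it was -0.99 and no longer met it. The nearest gene on the other side of the fold cutoff was Orm1.

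Orm1 stood at 44.5, 43.2 and 44.0 CPM in WT SVF and at 81.1, 85.5 and 78.7 CPM in FI3OE, with a log2 fold change of 0.91 ± 0.04. All 3 FI3OE libraries were above all 3 WT libraries. Saa3 stood at 38.5, 29.3 and 32.8 CPM in WT SVF and at 50.9, 48.9 and 52.0 CPM in FI3OE, a log2 fold change of 0.61 ± 0.08 with separate groups. With all 18 libraries in 1 fit the values of Saa3 and Cp were 0.61 ± 0.48 and 0.21 ± 0.38, and neither passed the adjusted p. Lcn2 stood at 5.85, 10.3 and 9.17 CPM in WT SVF and at 12.2, 10.8 and 10.9 CPM in FI3OE. The Lcn2 groups were also separate, but WT SVF replicate 1 was low and the log2 fold change of 0.44 ± 0.17 did not pass the adjusted p. It was 0.23 ± 0.10 without WT SVF replicate 1 and 0.60 ± 0.17 without WT SVF replicate 2. Cp stood at 326, 339.6 and 335 CPM in WT SVF and at 378, 364 and 396 CPM in FI3OE, a log2 fold change of 0.20 ± 0.04. The ferroxidase was thus separate between the groups at a small difference, while Hps3 on the opposite strand went the other way with a log2 fold change of -0.21 ± 0.05.

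Serpina3n stood at 384, 443 and 407 CPM in WT SVF and at 449, 422 and 469.8 CPM in FI3OE. The groups overlapped, with a log2 fold change of 0.14 ± 0.06. Hp stood at 1345, 1545 and 1443 CPM in WT SVF and at 1428, 1502 and 1484 CPM in FI3OE, also overlapping. Its log2 fold change of 0.04 ± 0.05 turned to -0.01 without WT SVF replicate 1.

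**Figure D2:**
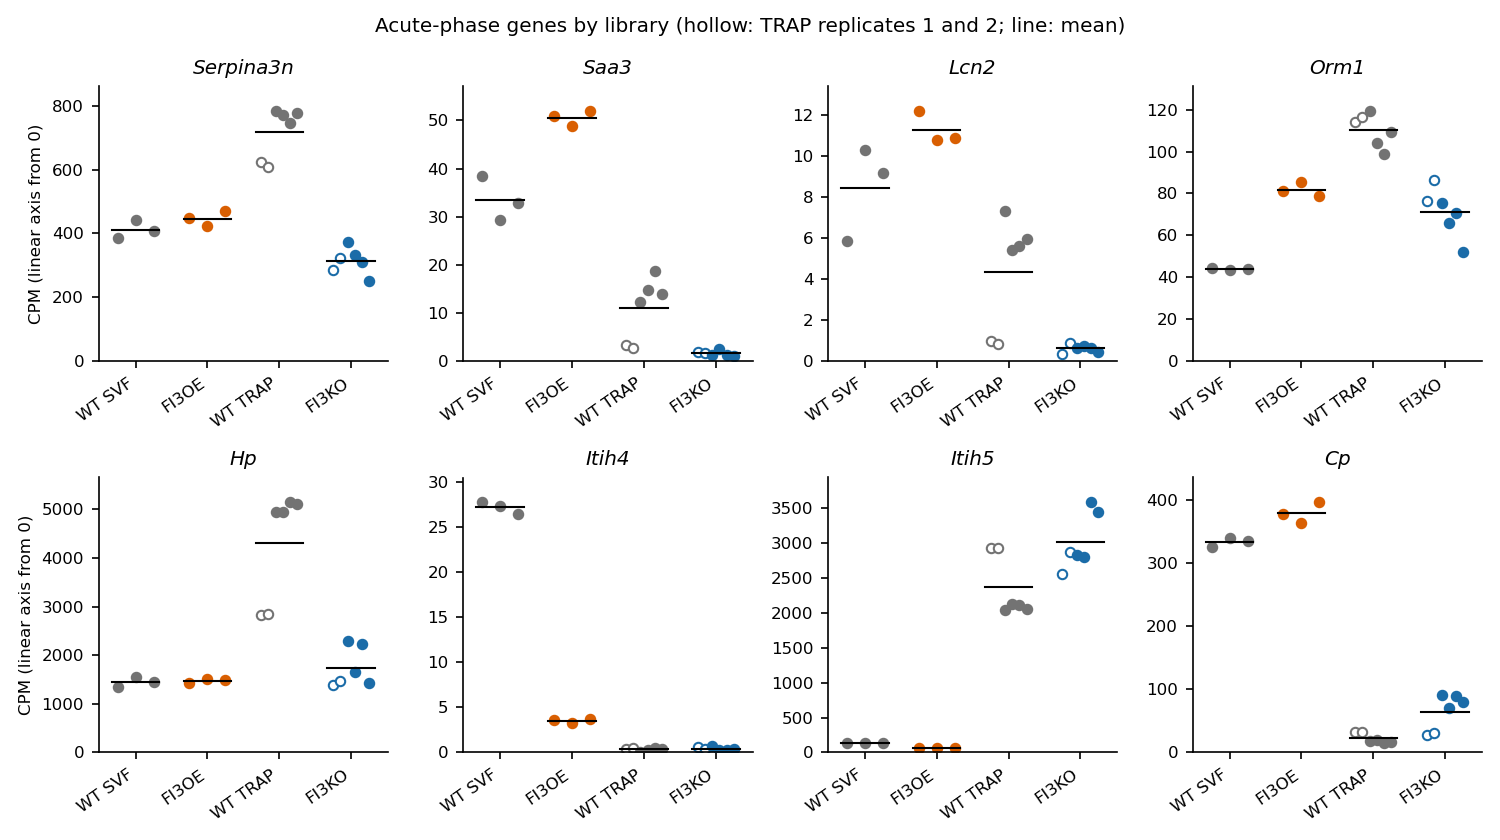
CPM of each gene in every library on a linear axis from 0, in the 4 groups, with the group mean as a line and TRAP replicates 1 and 2 as hollow points. Itih4 lies at 26.5 to 27.7 CPM in WT SVF and at 3.21 to 3.68 CPM in FI3OE, and the hollow WT TRAP points of Saa3 and Lcn2 lie near the FI3KO points, while for Cp the hollow points of both groups lie together.

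The second comparison asked what the loss of Irf3 from adipocytes does in eWAT of mice on a high-fat diet. Saa3, Lcn2, Hp and Serpina3n were lower in FI3KO and Cp was higher, all past both cutoffs, while Orm1 was lower by less. Of the 8 genes, 5 met both cutoffs, where 6.61% of 13624 genes did; 4 were lower against 4.87% of all genes, and 1 was higher against 1.74%. On the adjusted p alone 5 were lower and 2 higher, against 18.3% and 19.1% of all genes. In 4 of the 8 the CPM of the groups did not overlap, against 15.2% of all genes. The median log2 fold change was -0.87 over the 8 genes and 0.02 over all genes. These counts repeat what the genes were listed on and are a description. In RNA drawn from tagged adipocyte ribosomes of eWAT, fewer cells of a type and less RNA per cell cannot be told apart.

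Hp, the highest of the 8 in TPM, ranged from 2817 to 5141 CPM with a median of 4954 in WT TRAP. In FI3KO it ranged from 1396 to 2298 CPM with a median of 1560.5. Every WT TRAP library was above every FI3KO library, and the log2 fold change was -1.26 ± 0.19. WT TRAP replicates 1 and 2, at 2817 and 2850.3 CPM, were the low ones of their group. Serpina3n ranged from 608 to 784 CPM (median 759) in WT TRAP and from 252 to 374 CPM (median 316) in FI3KO. The groups were separate, with a log2 fold change of -1.15 ± 0.09. Orm1 ranged from 98.8 to 119 CPM (median 112) in WT TRAP and from 51.9 to 86.4 CPM (median 73.0) in FI3KO. Its groups were separate too, at a log2 fold change of -0.59 ± 0.10. Serpina3n was the nearest gene past the fold cutoff and Orm1 the nearest short of it.

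Saa3 ranged from 2.74 to 18.8 CPM with a median of 13.1 in WT TRAP and from 0.960 to 2.54 CPM with a median of 1.41 in FI3KO. The ranges nearly touched, since WT TRAP replicates 1 and 2 stood at 3.32 and 2.74 CPM and replicates 3 to 6 at 12.2 to 18.8 CPM. The log2 fold change was -2.75 ± 0.46, on 30 to 82 reads per FI3KO library. Lcn2 ranged from 0.844 to 7.34 CPM (median 5.50) in WT TRAP and from 0.356 to 0.870 CPM (median 0.636) in FI3KO. Here the groups overlapped through WT TRAP replicate 2, at 0.844 CPM, with replicate 1 just above at 0.996 CPM, and the log2 fold change was -2.76 ± 0.51 on 9 to 27 reads per FI3KO library.

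Cp ranged from 15.4 to 32.9 CPM (median 18.7) in WT TRAP and from 26.9 to 91.4 CPM (median 74.7) in FI3KO. FI3KO replicates 1 and 2, at 26.9 and 31.2 CPM, lay among the WT TRAP libraries, and replicates 3 to 6 at 69.8 to 91.4 CPM lay above all of them. The log2 fold change of Cp was 1.57 ± 0.32, and that of its opposite-strand neighbour Hps3 was 0.02 ± 0.07. Itih5 ranged from 2046 to 2934 CPM in WT TRAP and from 2557 to 3579 CPM in FI3KO, with overlapping groups and a log2 fold change of 0.39 ± 0.13. Itih4 was near the limit of detection, at 0.0921 to 0.505 CPM in WT TRAP and 0.247 to 0.666 CPM in FI3KO, or 3 to 18 reads per library. Its groups overlapped, with a log2 fold change of 0.34 ± 0.38.

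**Figure D3:**
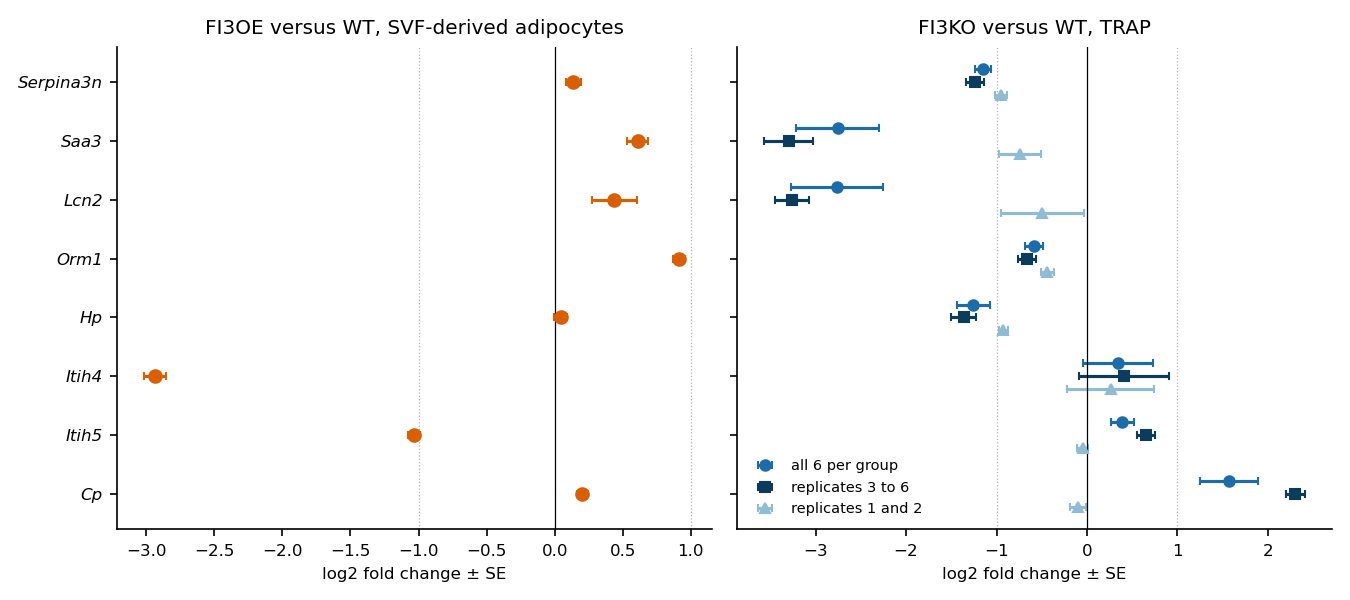
Log2 fold change ± SE of the 8 genes in FI3OE versus WT SVF-derived adipocytes (left) and in FI3KO versus WT TRAP (right), there for all 6 replicates per group, for replicates 3 to 6 and for replicates 1 and 2. Dotted lines mark the fold cutoff of 1 in either direction; Cp lies at 2.30 in replicates 3 to 6 and at -0.10 in replicates 1 and 2.

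The knockout effect was then set side by side in the replicate sets. In replicates 3 to 6 the log2 fold changes were -3.30 ± 0.27 for Saa3, -3.26 ± 0.19 for Lcn2, -1.36 ± 0.14 for Hp and -1.24 ± 0.10 for Serpina3n. Those of Orm1, Itih5, Cp and Itih4 were -0.67 ± 0.10, 0.65 ± 0.10, 2.30 ± 0.11 and 0.40 ± 0.50. In replicates 1 and 2 they were -0.74 ± 0.23 for Saa3, -0.50 ± 0.46 for Lcn2, -0.92 ± 0.05 for Hp, -0.95 ± 0.07 for Serpina3n, -0.44 ± 0.07 for Orm1, -0.05 ± 0.06 for Itih5, -0.10 ± 0.09 for Cp and 0.26 ± 0.48 for Itih4. The differences of Hp, Serpina3n, Orm1 and Saa3 thus had the same direction in both sets, while Cp and Itih5 had opposite signs. Lcn2 and Itih4 also kept their sign, with an SE in replicates 1 and 2 near or above the change itself. The difference between the sets was fitted as an interaction term in edgeR. The sets were taken from these data and 1 of them rests on the closest pair of libraries, so the term is a description and its p-values are not given. At an adjusted p of at most 0.05 it marked 4 of the 8 genes, Cp, Lcn2, Saa3 and Itih5, and 26.5% of the 13624 genes. Replicates 3 to 6 minus replicates 1 and 2, the difference in log2 fold change was 2.41 ± 0.17 for Cp, -2.77 ± 0.43 for Lcn2, -2.55 ± 0.46 for Saa3 and 0.70 ± 0.15 for Itih5. It was -0.44 ± 0.22 for Hp, -0.28 ± 0.16 for Serpina3n, -0.22 ± 0.16 for Orm1 and 0.14 ± 0.78 for Itih4. With replicates 1 and 2 alone, 0 of the 8 genes met both cutoffs, at 191 genes in all, and with replicates 3 to 6 alone the count was 5, at 1868 genes in all. In replicates 1 and 2 all 8 genes were under the fold cutoff, with Serpina3n at -0.95 and Hp at -0.92 the nearest to it. That fit rests on 2 libraries per group, and the WT TRAP ones are the closest pair, so its adjusted p alone is not read.

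Markers of other cells moved with some of these values. The 12 macrophage markers summed to 64.0 to 92.4 CPM in WT TRAP replicates 3 to 6, 33.1 to 33.7 CPM in WT TRAP replicates 1 and 2, 30.9 to 39.3 CPM in FI3KO replicates 1 and 2 and 11.8 to 15.1 CPM in FI3KO replicates 3 to 6. Of the 10 macrophage markers tested, 9 were lower in FI3KO, among them Cd74 (log2 fold change -1.72 ± 0.22, adjusted p = 0.000170) and Adgre1 (-1.74 ± 0.54, 0.0224). For Adgre1 the sign differed between the sets, at 0.79 in replicates 1 and 2 and -2.96 in replicates 3 to 6. Saa3 and Lcn2, which macrophages also express, were also higher in WT TRAP replicates 3 to 6 than in 1 and 2. Across the FI3KO sets the macrophage sum averaged 35.1 and 13.6 CPM, replicates 1 and 2 first. In the same order Lcn2 averaged 0.613 and 0.607 CPM and Saa3 1.74 and 1.47 CPM. Within replicates 1 and 2 the macrophage sums of FI3KO and WT TRAP averaged 35.1 and 33.4 CPM, and Saa3 1.74 and 3.03 CPM. Lcn2 averaged 0.613 and 0.920 CPM there, with overlapping groups. TRAP is directed at tagged adipocyte ribosomes, and the part of macrophages in the values of Saa3 and Lcn2 was not tested. No macrophage marker was at 0 in every library. Of the 2 neutrophil markers tested in FI3KO, 1 was lower and 1 did not pass the adjusted p. The lower one was S100a8 (0.242 ± 0.176 against 5.24 ± 2.05 CPM, SD, n = 6 each; log2 fold change -4.32 ± 0.44, adjusted p = 6.59e-05). Ly6g and Retnlg were at 0 in all TRAP libraries, and S100a9, the usual partner of S100a8, averaged 0.00439 CPM in WT TRAP. The fibroblast and preadipocyte markers summed to 1444 to 2162 CPM in FI3KO and 2345 to 3715 CPM in WT TRAP. In the SVF cultures the macrophage markers summed to 2113 to 2126 CPM in FI3OE and 2203 to 2347 CPM in WT SVF, far above their level in TRAP, and the fibroblast and preadipocyte markers to 14703 to 15085 CPM. Among hepatocyte markers, Serpina1c, F2, Tat and Apoh stayed under 1 CPM in every library, while Cyp2e1 and Pck1, which adipocytes also express, were higher in FI3KO (1.72 ± 0.40, adjusted p = 0.00541, and 1.36 ± 0.46, adjusted p = 0.0327), but by 0.24 and 0.07 in replicates 1 and 2. In FI3OE, where Itih4 was lower, 2 of the 3 hepatocyte markers tested were lower, Cyp2e1 (-1.96 ± 0.19, adjusted p = 9.43e-06) and Pck1 (-1.17 ± 0.13, adjusted p = 2.94e-05), and the list summed to 6.01 to 7.65 CPM against 16.9 to 20.3 CPM in WT SVF. Their part in the value of Itih4 was not tested. Of the adipocyte markers 5 of 10 were higher and 1 lower in FI3KO, and 3 were higher and 4 lower in FI3OE, against 19.1% and 18.3% of all genes in FI3KO and 20.2% and 16.8% in FI3OE. Of 8 mesothelial and 7 endothelial markers tested in FI3KO, 0 passed the adjusted p by edgeR or DESeq2, and 0 and 1 had an unadjusted p under 0.05. FI3KO replicates 1 and 2 had the highest sums of 2 lists among TRAP libraries: endothelial markers at 74.5 to 128 CPM, against 31.4 to 58.7 CPM in the other TRAP libraries, and epididymal markers at 1.55 to 1.66 CPM, against at most 0.299 CPM. Their part in the values of these libraries was not tested.

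**Figure D4:**
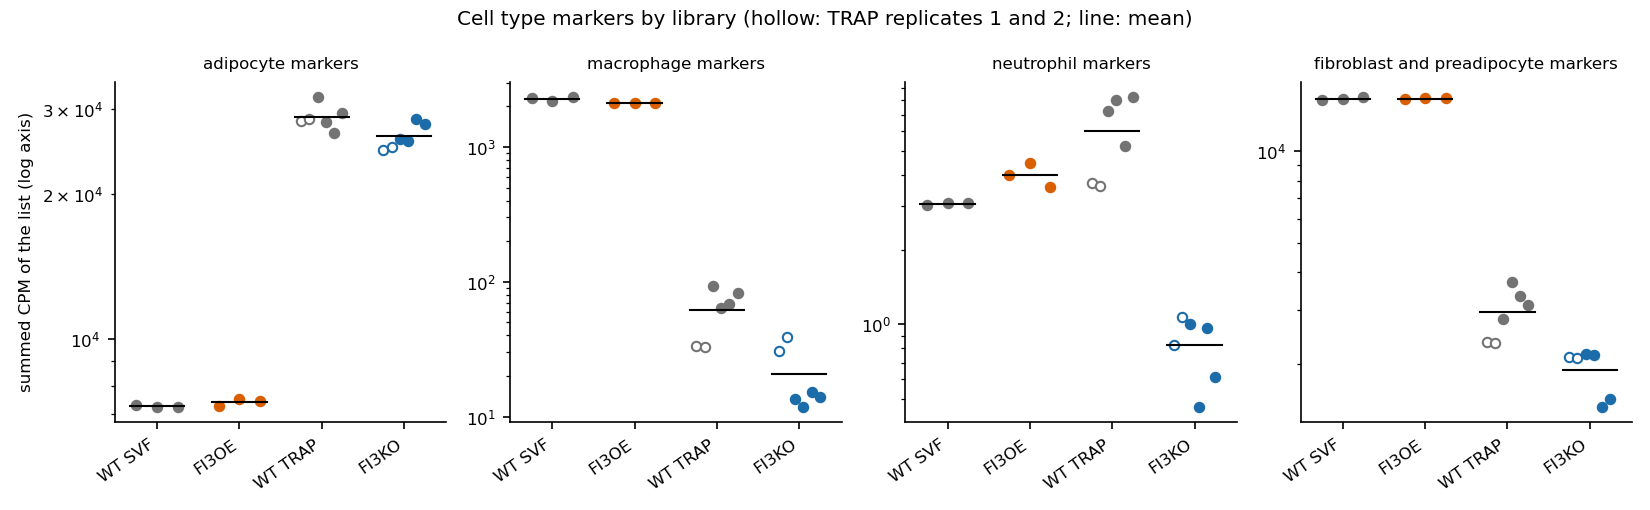
Summed CPM (log axis) of 4 lists of cell type markers in every library of the 4 groups, with the mean as a line and TRAP replicates 1 and 2 as hollow points. Macrophage markers lie between 2113 and 2347 CPM in the SVF cultures and between 11.8 and 92.4 CPM in TRAP.

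The wider acute-phase programme was read from a list of 34 other genes, which was compiled with earlier results of these data known. Genes named here and below that did not meet both cutoffs were chosen after their values were seen. Genes that define the liver response were nearly absent: Crp and Fga, for C-reactive protein and a fibrinogen chain, stayed under 1 CPM, as did Saa1, Saa2 and Fgg, while Apcs, Fgb and Hamp were at 0 in all 18 libraries. Each list count below is to be read against the shares of all genes that passed the adjusted p, 18.3% lower and 19.1% higher in FI3KO and 16.8% lower and 20.2% higher in FI3OE. In FI3KO versus WT TRAP, 18 of the 34 genes were tested. Of these 10 were lower and 2 were higher, with a median log2 fold change of -0.97 against 0.02 over all genes. C3, the central complement component, fell from 630.0 ± 247 to 131 ± 21.9 CPM (SD, n = 6 each; log2 fold change -2.21 ± 0.25, adjusted p = 0.000103). Serping1, the inhibitor of complement C1, fell from 227 ± 32.8 to 60.5 ± 13.6 CPM (-1.86 ± 0.14, adjusted p = 8.79e-06). Serpina3m, a neighbour of Serpina3n in the protease inhibitor cluster, fell from 11.6 ± 4.21 to 1.84 ± 0.648 CPM (-2.60 ± 0.30, adjusted p = 0.000122). Lbp, which carries lipopolysaccharide to its receptor, fell by 1.07 ± 0.11 on the log2 scale (adjusted p = 5.98e-05), and Lrg1, a leucine-rich plasma glycoprotein, by 1.16 ± 0.22 (adjusted p = 0.00155). The orosomucoid paralogs did not move together: Orm2 was lower (-0.96 ± 0.26, adjusted p = 0.0124) and Orm3 higher (0.79 ± 0.14, adjusted p = 0.00136). Within replicates 1 and 2 the log2 fold changes were -1.33 for C3, -1.63 for Serping1, -1.26 for Serpina3m, -0.60 for Lbp and -0.72 for Lrg1, the same direction as in all libraries.

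In FI3OE versus WT SVF, 21 of the 34 genes were tested, with 9 higher, 6 lower and a median log2 fold change of 0.25 against -0.00474 over all genes. Cfb, factor B of the alternative complement pathway, rose from 113 ± 4.80 to 264 ± 9.48 CPM (SD, n = 3 each; log2 fold change 1.24 ± 0.05, adjusted p = 5.46e-09). Orm3 rose from 2.13 ± 0.382 to 5.12 ± 0.438 CPM (1.29 ± 0.16, adjusted p = 6.60e-05). The broad protease inhibitor A2m fell from 31.3 ± 3.01 to 12.9 ± 2.26 CPM (-1.25 ± 0.11, adjusted p = 4.71e-06). The metal-binding metallothioneins Mt1 and Mt2 fell by 1.03 ± 0.10 and 1.06 ± 0.08 on the log2 scale (adjusted p = 9.70e-06 and 1.05e-06). C3, lower in FI3KO, was also lower in FI3OE (-0.36 ± 0.04), at 1352 ± 79.7 against 1760.1 ± 48.5 CPM. Of the negative acute-phase genes, a list that holds plasma proteins that fall in inflammation and also Tfrc, the cell-surface transferrin receptor, 3 of the 4 tested were lower in FI3OE (Rbp4, Ahsg and Tfrc), and in FI3KO 2 of 4 were higher and 1 was lower. Transferrin (Trf) stood at 3213 ± 568 CPM in FI3KO against 1651 ± 559 CPM in WT TRAP (log2 fold change 1.00 ± 0.20, adjusted p = 0.00250), with 0.19 in replicates 1 and 2 and 1.49 in replicates 3 to 6. Before rounding, the Trf value over all TRAP libraries lay just short of the fold cutoff.

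**Figure D5:**
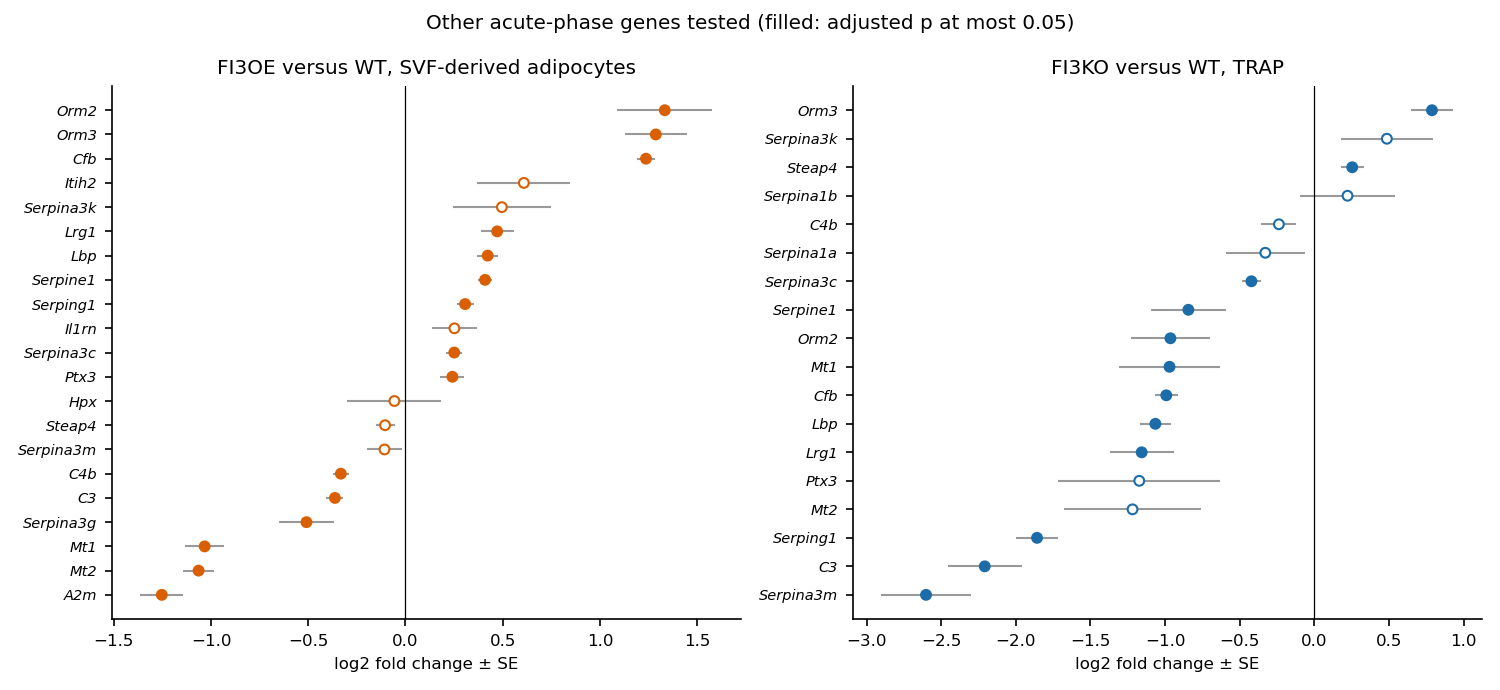
Log2 fold change ± SE of the other acute-phase genes tested in each comparison, sorted by value, with filled points at an adjusted p of at most 0.05. In FI3KO versus WT TRAP, 10 of 18 genes are lower and 2 higher, and in FI3OE versus WT SVF-derived adipocytes 9 of 21 are higher and 6 lower.

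The genes that would carry the signal to these promoters were then listed. Of 12 inducing cytokines, 10 stayed under 1 CPM in every TRAP library, Il6, Il1b and Tnf among them. Of the 3 tested in FI3KO 1 was lower and 1 higher, and of the 7 tested in FI3OE 3 were higher. Ctf1, for cardiotrophin 1, was the higher one in FI3KO (log2 fold change 0.47 ± 0.14, adjusted p = 0.0217). Lif, a cytokine of the interleukin-6 family, fell in FI3KO from 4.81 ± 2.28 to 0.586 ± 0.390 CPM (SD, n = 6 each; log2 fold change -2.98 ± 0.44, adjusted p = 0.000416), with -0.97 in replicates 1 and 2 and -4.10 in replicates 3 to 6. In FI3OE, Il6 rose from 2.23 ± 0.356 to 4.65 ± 0.921 CPM (1.08 ± 0.19, adjusted p = 0.000820). In FI3OE 5 of the 10 cytokine receptors tested were higher and 2 lower, by less than the fold cutoff. Of the 10 tested in FI3KO, 6 were lower and 1 higher. Osmr, the oncostatin M receptor, fell from 78.1 ± 22.1 to 30.7 ± 6.64 CPM (-1.30 ± 0.19, adjusted p = 0.000361), Tnfrsf1b by 1.43 ± 0.17 (0.000149) and Il1rap by 1.27 ± 0.26 (0.00289) on the log2 scale. Among 14 signal transducers and transcription factors tested in each comparison, 0 met both cutoffs in either by edgeR or by DESeq2, and 0 did at an unadjusted p under 0.05. The adjusted p passed for 4 lower and 3 higher in FI3KO, with Stat3 at -0.45 ± 0.10 (adjusted p = 0.00335) and Cebpa at 0.51 ± 0.08 (0.000478), and for 3 higher and 2 lower in FI3OE. Of the 7 feedback inhibitors tested, Socs1 alone passed the adjusted p and was higher in FI3KO (1.15 ± 0.35, adjusted p = 0.0205) at 1.32 ± 0.458 against 0.604 ± 0.311 CPM, and 4 of 8 were higher in FI3OE by less than the fold cutoff.

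Partners of the secreted proteins were read the same way. Ambp, which encodes the light chain bikunin that joins the plasma inter-alpha-trypsin inhibitors, was at 0 in every TRAP library and at most at 0.0418 CPM in the cultures. Of the hyaluronan partners, Has2, a hyaluronan synthase, rose in FI3OE from 7.41 ± 0.976 to 19.6 ± 0.478 CPM (SD, n = 3 each; log2 fold change 1.42 ± 0.10, adjusted p = 5.29e-07), where Itih4 and Itih5 were lower. Of the 9 tested there, 4 were higher and 1 lower. In FI3KO 3 of 6 were lower: the hyaluronan receptor Cd44 fell by 2.21 ± 0.38 on the log2 scale (adjusted p = 0.000892), with -0.21 in replicates 1 and 2 and -2.99 in replicates 3 to 6, and Hapln3, a link protein, by 1.55 ± 0.21 (0.000276). Of the receptors and carriers of the secreted proteins, 0 of the 8 tested passed the adjusted p in FI3KO in the edgeR fit, 0 had an unadjusted p under 0.05 and 0 passed in DESeq2. In FI3OE 3 of 9 were higher and 2 lower, against 20.2% and 16.8% of all genes. Cd163, the macrophage receptor for haptoglobin bound to haemoglobin, stood at 2.21 ± 0.967 CPM in FI3KO and 3.51 ± 1.79 CPM in WT TRAP (SD, n = 6 each), and in FI3OE it was lower (-0.38 ± 0.07, adjusted p = 0.000794). In the iron list, which bears on Cp, Lcn2 and Hp, 3 of 10 genes were lower and 1 higher in FI3KO, against 18.3% and 19.1% of all genes. Hmox1, the haem-degrading enzyme, fell from 30.2 ± 14.9 to 9.37 ± 1.84 CPM (-1.63 ± 0.30, adjusted p = 0.00141), with -0.22 in replicates 1 and 2 and -2.14 in replicates 3 to 6.

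Finally, the genes whose log2 CPM ran most like each of the 8 over the 12 TRAP libraries were named from 10816 genes, as a description over libraries that share genotype and replicate set. Hp ran most like Lrg1 (Pearson r = 0.989), Clu (0.984) and Osmr (0.982). Serpina3n ran most like Grid1 (0.987), Tsc22d2 (0.983) and Ppic (0.981), and Orm1 like Kcnk3 (0.980), Arhgap23 (0.976) and Nkd1 (0.965). Saa3 ran most like Gm49336 (0.990), Mdm2 (0.987) and Rbm28 (0.985), and Lcn2 like Slc22a4 (0.986), Dhcr7 (0.981) and Arpc1b (0.978). Cp ran most like Ctso (0.986), Rcbtb2 (0.982) and Asb13 (0.981), and Itih5 like Klhdc7a (0.989), Irs2 (0.986) and Dock11 (0.981). Itih4, at a few reads per library, reached 0.851 with Gm15491, 0.824 with Ccdc157 and 0.814 with Gm42669. Within a genotype some of these were lower: Serpina3n and Tsc22d2 reached 0.286 within the 6 WT TRAP libraries and Serpina3n and Ppic 0.620. Within the 6 FI3KO libraries Itih4 reached 0.390 with Gm42669 and 0.593 with Gm15491. None of the other 7 genes was among these most alike genes for any of the 8.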

How the data were processed

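RNA-seq was read in 18 libraries of 4 groups, prepared after rRNA removal with a kit that keeps no strand. The authors trimmed reads with fastp and quantified them with Salmon 1.4.0 against GENCODE transcripts of GRCm38 with sequence and GC bias correction. They deposited for each transcript an estimated count (NumReads), TPM and an effective length. The effective length was used here only in an alternative fit with a transcript length offset. Of 118733 transcripts, 117850 matched a gene, and unmatched reads were 0.375 to 1.08% of a library. Estimated counts were summed per gene, rounded, and given as CPM of the library total, and TPM were summed. Each experiment was fitted alone with edgeR 4.0.16 (R 4.3.3): filterByExpr, TMM, the quasi-likelihood test and Benjamini-Hochberg adjustment over all genes. SE is the absolute log2 fold change over the square root of F, and ± on CPM or TPM is SD. The code was tested on simulated data. Alternatives covered normalisation, filters, the transcript length offset, DESeq2 1.42.0, the replicate block and left-out libraries. The 8 genes and all lists were chosen with earlier results of these data known. Named were all 8 genes and, per list, up to 5 with the largest change past both cutoffs at a mean log2 CPM of at least 1. No label says that libraries came from separate animals or cultures, so p-values measure the spread between these libraries.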

Additional observations from a re-analysis of the deposited data

How the results depend on the processing

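Of 318 alternative values for the 8 genes, 310 kept their direction and whether they met both cutoffs together, 5 no longer met both and 3 changed sign. These counts do not follow the adjusted p alone: with all 18 libraries in 1 fit the FI3OE values of Saa3 and Cp were 0.61 ± 0.48 and 0.21 ± 0.38 (SE), and both lost their adjusted-p call. In FI3OE, where 583 genes and 2 of the 8 met both cutoffs, the counts were 5960 and 5 with no fold cutoff, 342 genes with all 18 libraries in 1 fit, and 551 to 623 genes and 1 to 2 of the 8 with 1 library left out. The log2 fold change of Hp lay between -0.0091 and 0.098 with 1 library left out, the low end without WT SVF replicate 1. In FI3KO, where 901 genes and 5 of the 8 met both cutoffs, the gene count was 5095 with no fold cutoff, 574 with at least 10 counts in every library, 1355 with all 18 libraries, 1868 with replicates 3 to 6 and 191 with replicates 1 and 2, and 761 to 1115 with 1 library left out. Of the 8, 7 passed with no fold cutoff and 4 with at least 10 counts in every library. That filter left out Lcn2, with 9 reads in FI3KO replicate 1, and Itih4. With replicates 1 and 2, 0 of the 8 met both cutoffs, and Itih5 was at -0.049 and Cp at -0.10. The cause was not tested. With the replicate block the counts were 579 and 736 genes, and 2 and 5 of the 8. Deviations of libraries with the same number correlated at -0.0458 to 0.0154 in the cultures and -0.293 to 0.104 in TRAP. These correlations gave no clear pairing by number, and they cannot exclude one. The interaction term marked 4 of the 8 in every alternative run. Depth limits Itih4 in TRAP, at 3 to 18 reads per library.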
